A study of Mus musculus with 2 samples.

Results

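The 37 genes described here cover cholesterol synthesis, sterol sensing, turnover and esterification, and the carriers and transporters that move cholesterol in and between brain cells. They were listed by symbol, and all 37 were found among 55536 annotated genes. Total RNA was sequenced from the left cerebral cortex of male mice of strain B6CASTF1/J, the first-generation cross of C57BL/6J and CAST/EiJ, at 25 days of age, with no treatment in the labels. The samples form 1 group of 2 animals, called replicate 2 and replicate 1 after the labels, and 300 ng of RNA was used per library. Both samples carry the same donor entry, so that they are separate animals rests on the words biological replicate and on their different biobank numbers. With 1 group there is no contrast between conditions and no test, and each difference below compares 2 libraries. The animals carry both parental genomes, whereas the annotation is that of the C57BL/6J build mm10, so reads of the parental alleles were not told apart.

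Cholesterol hardly crosses the blood-brain barrier, and the brain makes its own from acetyl-CoA through mevalonate, squalene and lanosterol. In textbook accounts oligodendrocytes use it in bulk for myelin, astrocytes ship it to neurons on apolipoprotein E particles, and neurons hydroxylate the surplus to an oxysterol that leaves the brain. Synthesis is adjusted by the SREBP transcription factors, which the escort Scap carries out of the endoplasmic reticulum when sterol is low and which Insig proteins hold back when it is high, while the LXR receptors Nr1h2 and Nr1h3 sense oxysterols and drive export.

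The libraries held 33263801 expected counts in replicate 2 and 30503944 in replicate 1, and 14744 genes reached 1 TPM (a level scaled to transcript length and library) in both animals. Their counts differed by more than sampling noise, with a chi-square per degree of freedom of 5.56 over genes averaging 10 counts or more. Markers of neurons were high in the labelled cortex, with a median of 348 TPM in replicate 2 and 348 TPM in replicate 1 over 8 neuronal genes. Of the members, 36 of 37 were at or over 1 TPM in both animals, against 26.5% of all annotated genes. Ch25h was the exception. The annotated genes include non-coding ones, whereas every member has a protein-coding transcript, so these shares are not matched for gene class. The median level of the 37 members was 21.3 ± 0.573 TPM (SD, n = 2), and their summed level was 2000 TPM in replicate 2 and 2039 TPM in replicate 1. Apoe alone made up 45.8% of that sum in replicate 2 and 46.0% in replicate 1. The detected members spanned a 796-fold range, with Apoe at the top and the oxysterol receptor gene Nr1h3 at the bottom. Between neighbours in the order of mean levels, 17 of 36 pairs did not overlap between genes when both animals were considered, and 19 overlapped.

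**Figure D1:**
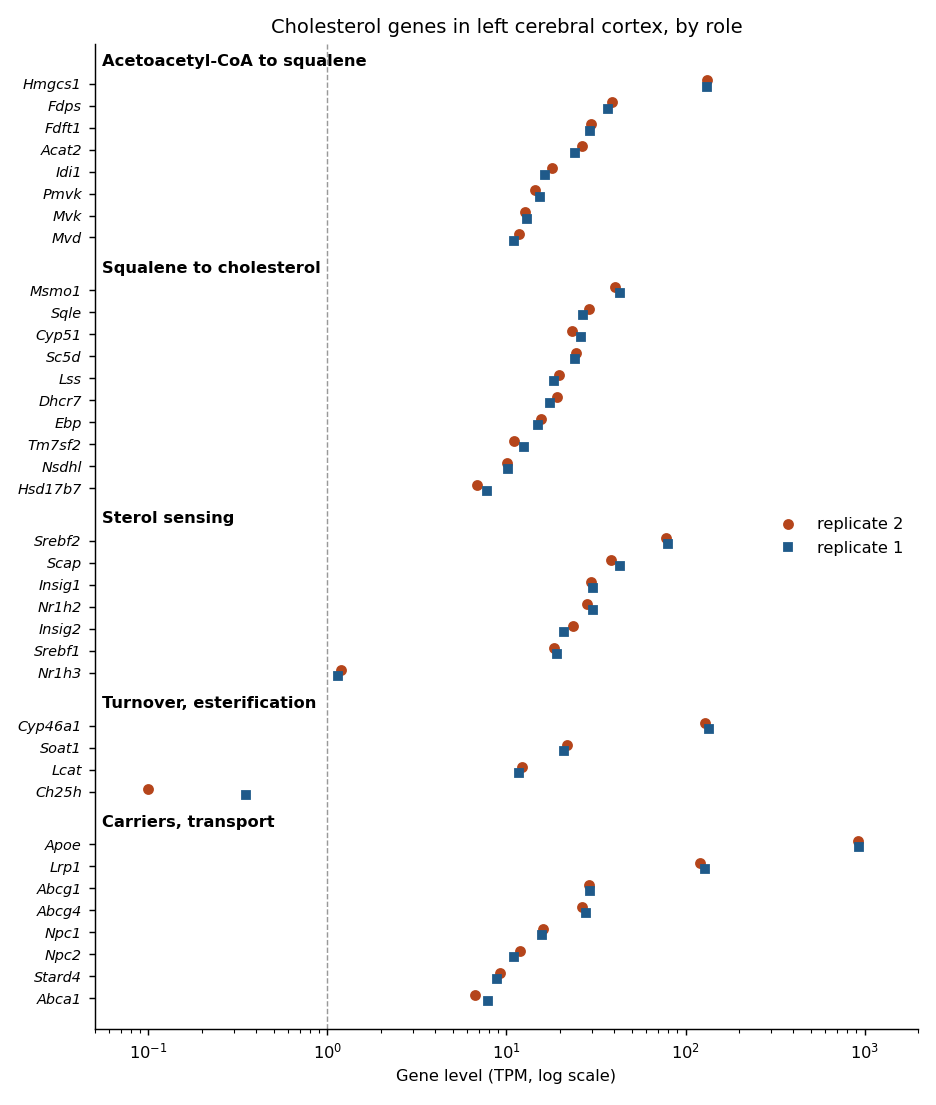
Levels of the 37 cholesterol genes in TPM on a log axis, grouped by role and sorted by mean level within each role. Circles are replicate 2, squares replicate 1, and the dashed line is 1 TPM; the pair of symbols lies close together for 36 genes, and Ch25h alone lies left of the line.

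All 18 synthesis enzymes among the members were detected, and their levels ran from 7.34 TPM for Hsd17b7 to 131 TPM for Hmgcs1. Hmgcs1, the cytosolic synthase that condenses acetoacetyl-CoA to HMG-CoA, had 132 TPM in replicate 2 and 131 TPM in replicate 1, a mean of 131 ± 0.445 TPM (SD, n = 2). It stood at 3.15 times the level of the next enzyme of the list, Msmo1. Acat2, the cytosolic thiolase that feeds Hmgcs1, had 26.6 TPM in replicate 2 and 24.0 TPM in replicate 1. The next 3 enzymes, which act on mevalonate, were lower than Acat2 in both animals. The mevalonate kinase gene Mvk had 12.7 TPM in replicate 2 and 13.0 TPM in replicate 1. Pmvk, which adds the next phosphate, had 14.5 TPM in replicate 2 and 15.4 TPM in replicate 1. Mvd, the decarboxylase that makes isopentenyl diphosphate, had 11.7 TPM in replicate 2 and 11.1 TPM in replicate 1. Idi1, the isomerase of the isoprenoid units, had 18.0 TPM in replicate 2 and 16.5 TPM in replicate 1, above these consecutive kinase and decarboxylase genes in both animals. Fdps, which joins the units to farnesyl diphosphate, had 38.8 TPM in replicate 2 and 36.9 TPM in replicate 1. Fdft1, the squalene synthase that commits farnesyl diphosphate to sterols, had 29.5 TPM in replicate 2 and 29.3 TPM in replicate 1. Levels at this branch point were thus above those of the kinases in both animals. Expected counts of Acat2, Idi1, Fdps, Fdft1 and Tm7sf2 were not whole numbers within 0.01, so some of their reads were divided between genes and these 5 levels carry that added uncertainty.

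From squalene onwards the highest member was Msmo1, the methylsterol monooxygenase, with 40.3 TPM in replicate 2 and 43.0 TPM in replicate 1. The lowest was Hsd17b7, the ketosteroid reductase of the demethylation complex, with 6.88 TPM in replicate 2 and 7.81 TPM in replicate 1. Nsdhl, the sterol dehydrogenase that works with them, had 10.03 TPM in replicate 2 and 10.16 TPM in replicate 1. The 3 enzymes of this demethylation step were thus the highest, the lowest and the next to lowest of the 10. Sqle, the squalene epoxidase, had 29.0 TPM in replicate 2 and 26.7 TPM in replicate 1. Lss, which closes the rings to lanosterol, had 19.7 TPM in replicate 2 and 18.4 TPM in replicate 1. Cyp51, the lanosterol demethylase, had 23.1 TPM in replicate 2 and 26.0 TPM in replicate 1. The sterol reductase gene Tm7sf2 was lower than each of these. It had 11.0 TPM in replicate 2 and 12.5 TPM in replicate 1. Ebp, the sterol isomerase on chromosome X, had 15.6 TPM in replicate 2 and 14.9 TPM in replicate 1. The desaturase gene Sc5d had 24.5 TPM in replicate 2 and 24.2 TPM in replicate 1. Dhcr7, whose human counterpart is mutated in Smith-Lemli-Opitz syndrome, reduces the last precursor to cholesterol in a main branch of the pathway. Its level was 19.3 TPM in replicate 2 and 17.6 TPM in replicate 1. The median of the 10 enzymes after squalene was 18.8 ± 1.04 TPM, and that of the 8 before it 21.3 ± 1.46 TPM (SD, n = 2 each).

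**Figure D2:**
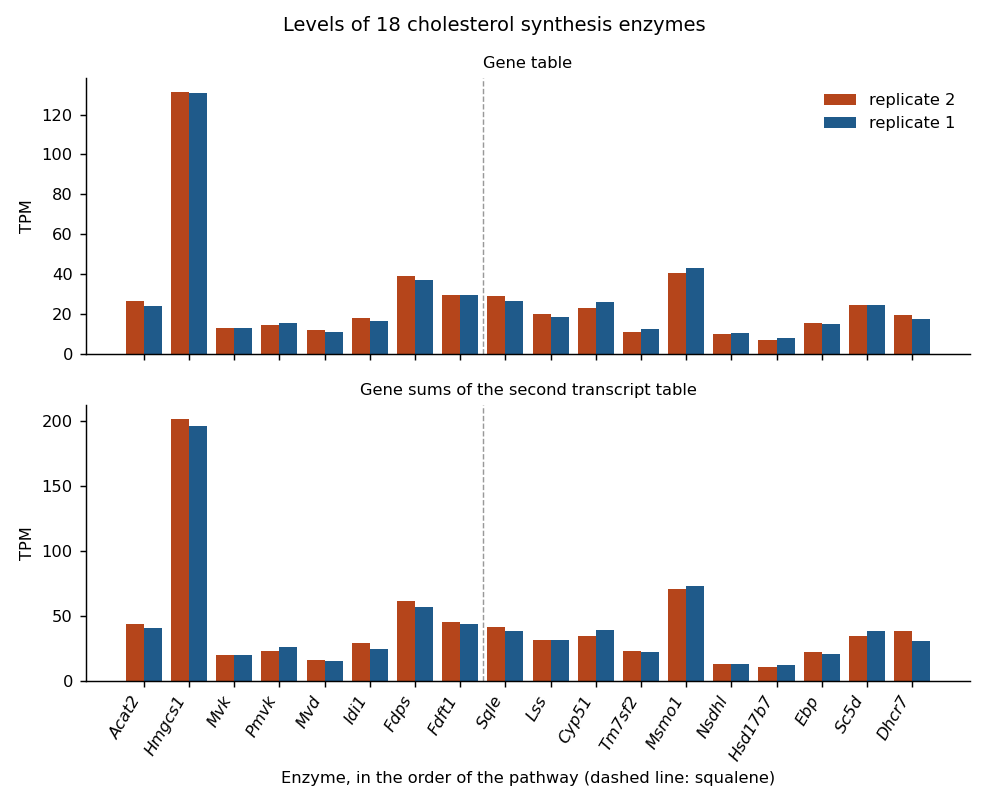
TPM of the 18 synthesis enzymes in pathway order, from the gene table (top) and from gene sums of the second transcript table (bottom), with replicate 2 to the left of replicate 1 in each pair of bars. Hmgcs1 is the tallest bar in both panels, at 132 and 131 TPM in the upper panel, and Hsd17b7 the lowest.

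Hmgcs1 and Hsd17b7 are shown with the 250 bases before and 50 bases after their annotated starts, because they are the highest and the lowest of the 18 synthesis members and share motifs. RefSeq windows on GRCm38.p6 were found for 30 of the 37 members, and for all but Abcg1, Fdft1, Sqle, Abcg4, Npc1, Stard4 and Fdps. Capitals mark letters that match, on either strand, CACCNCAC (an SRE-like motif, resembling the core of known sterol regulatory elements), CCAAT (the box bound by NF-Y), GGGCGG (the GC box bound by Sp1) or CACGTG (an E-box). No match of a motif overlapped a match of another at the members' starts. The Hmgcs1 window lies at chr13:119690101-119690400 on the plus strand, and the Hsd17b7 window at chr1:169969156-169969455 on the minus strand.
Hmgcs1: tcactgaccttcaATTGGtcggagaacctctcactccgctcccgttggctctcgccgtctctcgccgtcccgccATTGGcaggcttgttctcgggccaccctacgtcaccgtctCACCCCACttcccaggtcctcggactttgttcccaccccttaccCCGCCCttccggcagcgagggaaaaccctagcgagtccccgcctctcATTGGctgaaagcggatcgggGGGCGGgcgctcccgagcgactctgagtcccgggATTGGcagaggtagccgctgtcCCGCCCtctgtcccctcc
Hsd17b7: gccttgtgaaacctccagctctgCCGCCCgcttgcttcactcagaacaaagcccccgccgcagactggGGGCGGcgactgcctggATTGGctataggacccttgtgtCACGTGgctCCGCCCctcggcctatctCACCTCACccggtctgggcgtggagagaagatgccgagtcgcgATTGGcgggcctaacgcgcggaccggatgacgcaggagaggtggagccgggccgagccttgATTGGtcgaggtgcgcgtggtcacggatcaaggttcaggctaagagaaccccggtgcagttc
Hmgcs1 held 4 CCAAT matches, 3 GC boxes and 1 SRE-like match, CACCCCAC, which begins 136 bases before the start. Hsd17b7 held 3 CCAAT matches, 3 GC boxes, 1 E-box and 1 SRE-like match, CACCTCAC, which begins 116 bases before the start. The highest and the lowest of the 18 synthesis members thus both carried CCAAT, GC box and SRE-like letters.

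CCAAT was present in 14 of the 15 synthesis genes with a window and in 8 of the 15 other members with one. Of 17492 protein-coding genes with a window 42.3% had it, and of all 27025 genes 41.1%. Acat2 was the synthesis gene without CCAAT, and Mvk had the most, with 5 matches. GC boxes were present in 14 of 15 synthesis genes and 10 of 15 other members, against 49.2% of protein-coding genes and 38.2% of all genes. Pmvk was the synthesis gene without a GC box. The SRE-like motif was found in 3 of 15 synthesis genes (Hmgcs1, Hsd17b7 and Acat2) and in 0 of 15 other members, against 7.21% of protein-coding genes and 7.22% of all genes. E-boxes were found in 3 of 15 synthesis genes and 3 of 15 other members, against 8.91% of protein-coding genes and 8.09% of all genes. A gene with several annotated starts counts once if any of its windows has a match, and these letter matches are a description of sequence, not of binding. The background shares were not limited to genes detected here, whereas nearly all members were detected, so they are not matched for expression.

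**Figure D3:**
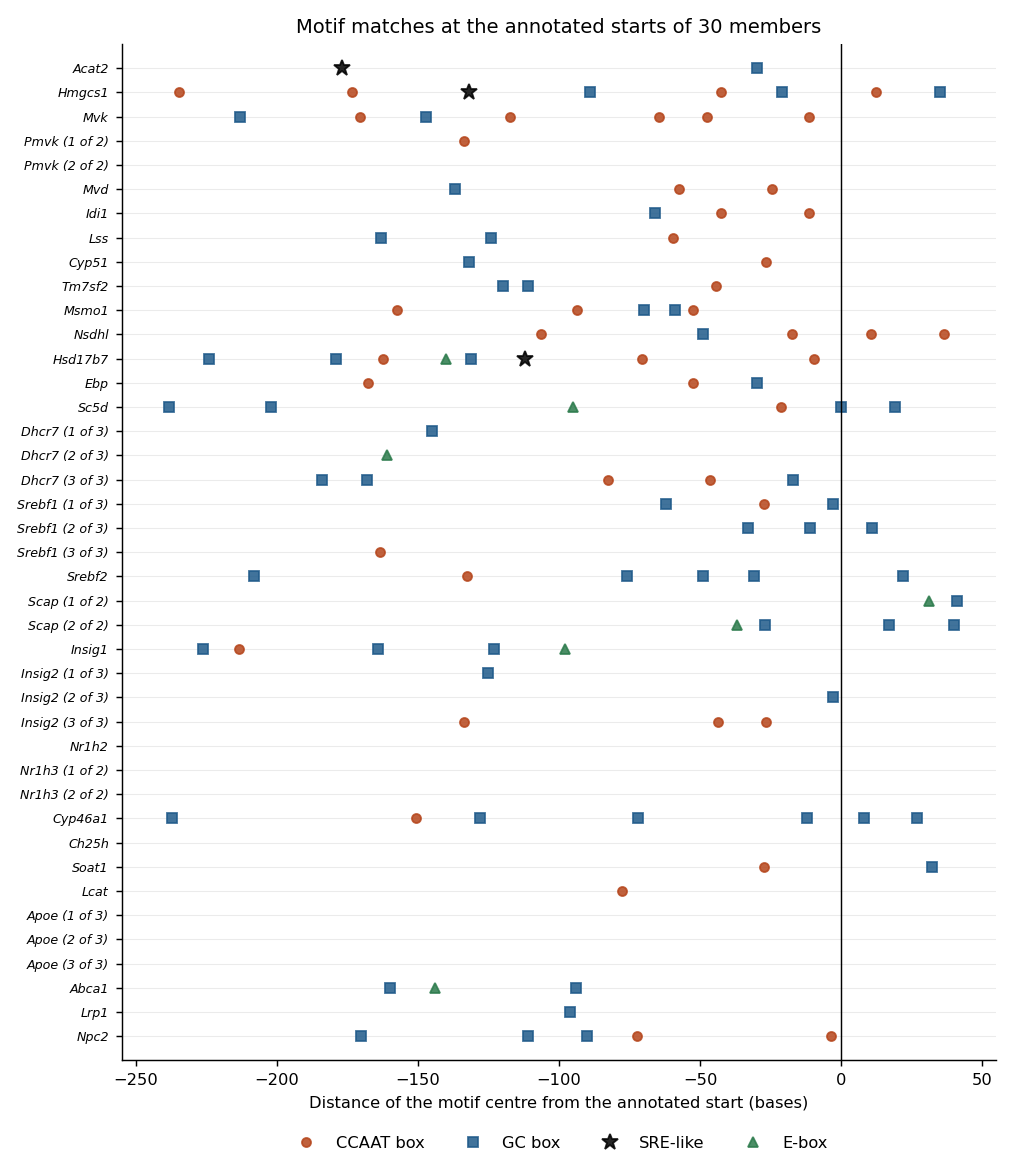
Position of each motif match relative to the annotated start, in bases, for the 41 windows of 30 members, with genes in pathway order and several starts of a gene numbered along the chromosome. Circles are CCAAT, squares GC boxes, stars the SRE-like motif and triangles E-boxes; the upper rows, the synthesis enzymes, have circles for 14 of 15 genes, and the rows of Nr1h2, Nr1h3, Ch25h and Apoe are empty.

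Among the sterol sensors, the gene of the cholesterol-directed factor SREBP-2 exceeded that of SREBP-1 in both animals. Srebf2 had 78.2 TPM in replicate 2 and 79.5 TPM in replicate 1, and Srebf1 had 18.5 TPM in replicate 2 and 19.2 TPM in replicate 1. The log2 ratio of Srebf2 over Srebf1 within each library was 2.08 in replicate 2 and 2.05 in replicate 1. Gene sums of the second transcript table gave a smaller ratio, 1.69 in replicate 2 and 1.75 in replicate 1, in the same direction. Scap, the escort, had 38.3 TPM in replicate 2 and 43.2 TPM in replicate 1. Insig1, itself a SREBP target, had 29.8 TPM in replicate 2 and 30.2 TPM in replicate 1. Insig2, its paralog, had 23.7 TPM in replicate 2 and 21.02 TPM in replicate 1. Insig1 was the higher of the pair in both animals, with a log2 ratio over Insig2 of 0.33 in replicate 2 and 0.52 in replicate 1. Posterior mean TPM gave smaller ratios in the same direction, 0.12 in replicate 2 and 0.18 in replicate 1. The LXR pair was far apart. Nr1h2 (LXR beta) had 28.2 TPM in replicate 2 and 30.4 TPM in replicate 1, and Nr1h3 (LXR alpha) had 1.19 TPM in replicate 2 and 1.14 TPM in replicate 1. The log2 ratio of Nr1h2 over Nr1h3 was 4.57 in replicate 2 and 4.74 in replicate 1, on 46 expected counts of Nr1h3 in replicate 2 and 36 in replicate 1.

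Srebf1 is known to start at alternative first exons, which give the SREBP-1a and SREBP-1c proteins, and the windows at the starts of its leading coding transcripts are shown because they carried different letters. Both lie on the minus strand, the upstream one at chr11:60220578-60220877 and the downstream one at chr11:60210422-60210721, with capitals as above.
Srebf1 upstream: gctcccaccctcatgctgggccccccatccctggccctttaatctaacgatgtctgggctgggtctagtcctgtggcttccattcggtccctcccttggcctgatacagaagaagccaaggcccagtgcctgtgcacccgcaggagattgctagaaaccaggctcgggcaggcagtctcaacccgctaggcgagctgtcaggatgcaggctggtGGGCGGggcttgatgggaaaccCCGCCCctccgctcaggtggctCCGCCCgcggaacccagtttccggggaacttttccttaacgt
Srebf1 downstream: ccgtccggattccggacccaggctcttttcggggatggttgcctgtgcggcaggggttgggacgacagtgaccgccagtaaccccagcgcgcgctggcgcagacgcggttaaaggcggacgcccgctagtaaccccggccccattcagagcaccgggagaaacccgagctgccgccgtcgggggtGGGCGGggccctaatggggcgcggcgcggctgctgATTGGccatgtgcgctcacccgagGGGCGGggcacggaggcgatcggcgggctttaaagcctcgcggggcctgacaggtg
The upstream window held 3 GC boxes and no CCAAT, and the downstream window held 2 GC boxes and 1 CCAAT match. Srebf1-201, whose first base lies next to the upstream start, held 32.6% of the gene's TPM in replicate 2 and 33.1% in replicate 1. Srebf1-207, next to the downstream start and 10139 bases further along, held 20.3% in replicate 2 and 21.9% in replicate 1. In the second transcript table Srebf1-201 held 27.5% in replicate 2 and 25.9% in replicate 1, and Srebf1-207 held 9.91% in replicate 2 and 14.5% in replicate 1. The upstream transcript was the more abundant by TPM in both animals and both tables, by 1.60 times in replicate 2 and 1.51 times in replicate 1 in the first table. They are annotated with coding sequences of 3402 bases for Srebf1-201 and 3066 bases for Srebf1-207. Their annotated last bases also differ, at chr11:60199089 for Srebf1-201 and chr11:60200463 for Srebf1-207. Where the coding sequences differ was not examined, so this gap in length is not a measure of how SREBP-1a and SREBP-1c differ. No transcript reached 50% of the gene, and the tables differed on the non-coding remainder.

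Turnover in the cortex was represented by Cyp46a1, the neuronal enzyme that makes the oxysterol by which cholesterol leaves the brain. It had 129 TPM in replicate 2 and 136 TPM in replicate 1, a mean of 132 ± 5.06 TPM (SD, n = 2), and ranked 695 among all annotated genes. Its range overlapped that of Hmgcs1, so the main gene of removal and the highest gene of synthesis had levels that could not be placed in order. Ch25h, a hydroxylase best known from macrophages, was close to the limit of counting, with 3 expected counts or 0.10 TPM in replicate 2 and 9 expected counts or 0.35 TPM in replicate 1. Cyp46a1 over Ch25h came to a log2 ratio of 10.33 in replicate 2 and 8.60 in replicate 1. Soat1, which esterifies cholesterol for storage inside cells, had 21.8 TPM in replicate 2 and 20.9 TPM in replicate 1. Lcat, the secreted enzyme that esterifies cholesterol on lipoproteins, had 12.2 TPM in replicate 2 and 11.8 TPM in replicate 1. Soat1 was above Lcat in both animals, by a log2 ratio of 0.83 in replicate 2 and 0.83 in replicate 1. In the second table this ratio was 0.44 in replicate 2 and 0.51 in replicate 1. The Cyp46a1 window is shown because it had the most GC boxes of the 30 members with a window, 6, with 1 CCAAT match. It lies at chr12:108334066-108334365 on the plus strand, with capitals as above.
Cyp46a1: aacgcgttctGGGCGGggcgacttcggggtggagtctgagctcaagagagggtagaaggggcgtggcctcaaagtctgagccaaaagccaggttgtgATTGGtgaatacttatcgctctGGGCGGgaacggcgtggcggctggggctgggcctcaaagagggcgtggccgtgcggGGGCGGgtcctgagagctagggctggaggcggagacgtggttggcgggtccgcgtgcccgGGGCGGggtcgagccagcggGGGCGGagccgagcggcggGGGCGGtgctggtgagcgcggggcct

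Of the carriers, Apoe, the gene of the main apolipoprotein of the brain, was the highest member by a wide margin. It had 917 TPM in replicate 2 and 937 TPM in replicate 1, a mean of 927 ± 14.2 TPM (SD, n = 2), and ranked 57 among all annotated genes. The gene lies at chr7:19696109-19699188 on the minus strand, and its 3 RefSeq windows held none of the searched motifs. Lrp1, a receptor that takes up lipoproteins, had 121 TPM in replicate 2 and 129 TPM in replicate 1. The transporters that load cholesterol onto particles differed in level. Abcg1 had 28.8 TPM in replicate 2 and 29.2 TPM in replicate 1. Abcg4, its paralog, had 26.4 TPM in replicate 2 and 28.0 TPM in replicate 1. Abca1, which lipidates apolipoprotein E, was lower than both, with 6.63 TPM in replicate 2 and 7.85 TPM in replicate 1. Abcg4 over Abcg1 gave a log2 ratio of -0.12 in replicate 2 and -0.06 in replicate 1. With posterior mean TPM these ratios were -0.03 in replicate 2 and 0.02 in replicate 1, so the order of the pair was not settled. Npc1, the lysosomal membrane protein of cholesterol export, had 16.1 TPM in replicate 2 and 15.7 TPM in replicate 1. Npc2, the soluble protein that hands cholesterol to it, had 11.9 TPM in replicate 2 and 11.0 TPM in replicate 1. Npc1 was the higher of the pair in both animals, with a log2 ratio of 0.43 in replicate 2 and 0.51 in replicate 1, and of 0.26 in replicate 2 and 0.34 in replicate 1 by the second table. Stard4, a cytosolic sterol carrier, had 9.19 TPM in replicate 2 and 8.81 TPM in replicate 1.

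The order of levels was much the same in the second transcript table, where the values per gene were 1.54 times those of the gene table in the median member and 1.59 times in the median gene. Over the 37 members, which share the same reads in both tables, Spearman's rho was 0.99, given as a description. The 9 highest members held the same places in both tables.

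Transcript assignments were less settled than gene levels. Of the 37 members, 28 had a transcript that held at least 50% of the gene's TPM in both animals, and 26 had one in the second table. The same transcript led in both animals and both tables for 24 members. For 5 members each table named the same leader in both animals, but the tables named different ones. In Hmgcs1 the first table put 70.2% on Hmgcs1-202 in replicate 2 and 73.6% in replicate 1, whereas the second put 81.5% on Hmgcs1-201 in replicate 2 and 79.7% in replicate 1. In Apoe the first table put 84.3% on Apoe-209 in replicate 2 and 88.1% in replicate 1, and the second put 93.9% on Apoe-205 in replicate 2 and 94.5% in replicate 1. The paired transcripts of Hmgcs1, Apoe, Fdps and Soat1 have the same annotated coding sequence, and their first bases lie 18 bases apart in Hmgcs1, 601 in Apoe, 71 in Fdps and 7527 in Soat1. Mvd differed in class as well. The first table put 100% on the protein-coding Mvd-201 in replicate 2 and 95.4% in replicate 1, and the second put 100% on Mvd-202, annotated as a target of nonsense-mediated decay, in replicate 2 and in replicate 1.

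Members were mostly assigned to protein-coding transcripts. In the 36 detected members the median share of TPM on such transcripts was 92.6% in replicate 2 and 91.7% in replicate 1, against 91.1% in replicate 2 and 90.1% in replicate 1 over 12817 detected protein-coding genes. By the second table the members had 86.6% in replicate 2 and 88.5% in replicate 1, against 89.3% and 88.2%. Their median share on retained introns was 2.48% in replicate 2 and 3.31% in replicate 1, against 1.84% and 2.23%. By the second table it was 6.09% in replicate 2 and 4.96% in replicate 1, against 1.74% and 2.06%. Lss was the member under 50% in both animals and both tables, as were 5.98% of the detected protein-coding genes. Its coding share was 28.0% in replicate 2 and 33.0% in replicate 1, and 30.3% in replicate 2 and 28.6% in replicate 1 by the second table. Retained introns took 41.2% of Lss in replicate 2 and 39.9% in replicate 1, and 69.7% in replicate 2 and 71.4% in replicate 1 by the second table. Most of the TPM of the lanosterol synthase gene was thus placed on transcripts that are not annotated to encode the enzyme. The first table put 30.7% in replicate 2 and 27.1% in replicate 1 on Lss-202, a processed transcript of 352 bases. The second put 0 on Lss-202, and 43.9% in replicate 2 and 43.3% in replicate 1 on Lss-203, a retained intron of 641 bases. TPM is scaled to length, so short transcripts can take large shares on few counts. In the first table Lss-202 had 34.5 expected counts in replicate 2 and 25.5 in replicate 1. The coding Lss-201 had 547 in replicate 2 and 517 in replicate 1. The retained intron Lss-204, of 6992 bases, had 539 in replicate 2 and 386 in replicate 1. Srebf1 was also low, at 64.0% in replicate 2 and 60.7% in replicate 1, but other members were in that range by the first table. Ebp had 61.4% in replicate 2 and 60.4% in replicate 1, and Lrp1 62.1% in replicate 2 and 64.7% in replicate 1. By the second table Srebf1 had 41.6% in replicate 2 and 45.5% in replicate 1. There Ebp had 72.3% in replicate 2 and 76.6% in replicate 1, Lrp1 had 77.1% and 76.4%, and Mvd was below Srebf1.

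**Figure D4:**
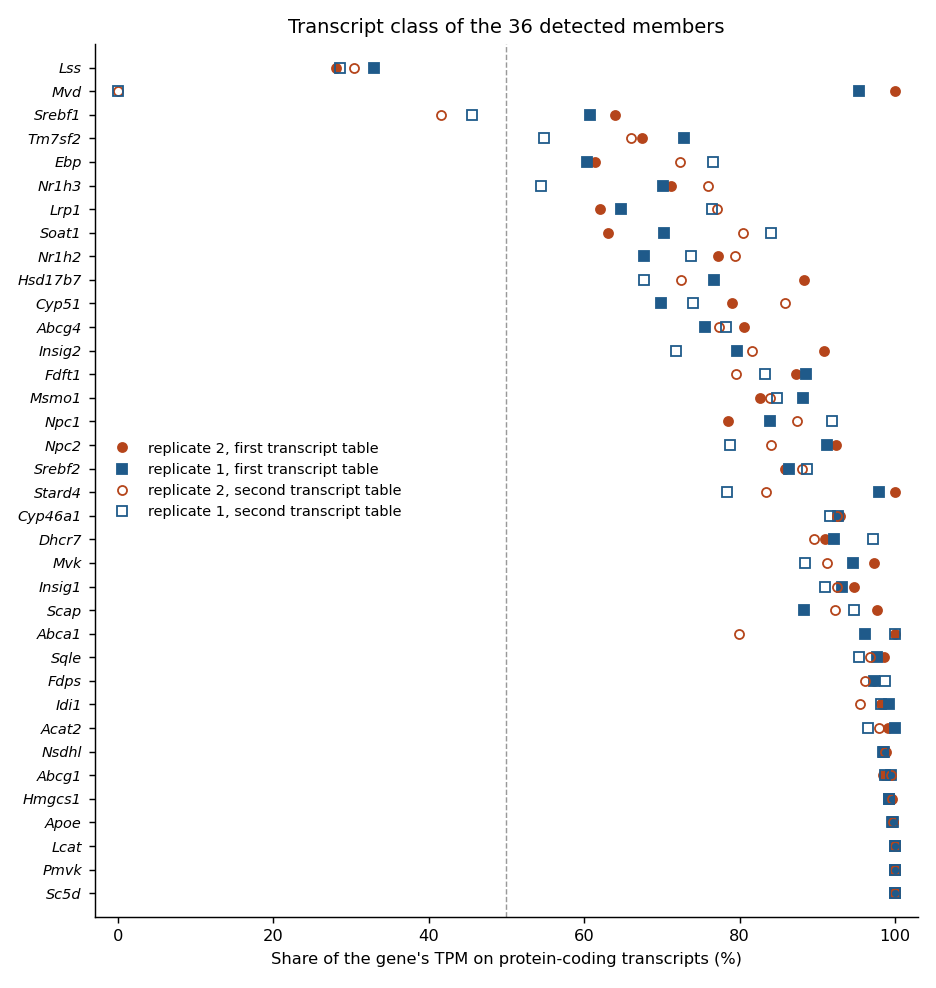
Share of each detected member's TPM on transcripts annotated as protein-coding, in percent, with filled symbols for the first and open symbols for the second transcript table, circles for replicate 2 and squares for replicate 1. Lss lies left of the dashed line at 50% in all 4 values, and Mvd lies at 100% and 95.4% by the first table but at 0 by the second.

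By TPM the members differed little between the animals, as did most genes counted as deeply. Genes averaging 10 expected counts or more were compared on log2(TPM + 0.5), and called apart where the higher animal exceeded the lower by over 25%, and 0 of 36 members were called so, against 14.3% of the 18136 genes tested. Members are counted more deeply than most genes. Where at least 300 counts on average were required, a minimum chosen after the data were seen, 0 of 35 members were over 25% apart, against 3.79% of 9774 genes. The largest difference was that of Abca1, at -0.23, with replicate 2 the lower, and the standard deviation over the animals was 3.84% of the mean in the median member. Of the 36 members 18 were higher in replicate 2 and 18 lower, against 41.5% of all tested genes higher. This split depended on the scale, with 27 members higher by TMM-scaled counts, 21 by the second table and 35 by counts scaled to the spike-ins, which put the median of all tested genes at 0.15, against -0.03 by TPM. The median log2 difference of the 18 synthesis enzymes was 0.01, against -0.03 over all genes tested.

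For 27 of the 36 members the exact binomial 95% counting interval of the TMM-scaled counts included 0. It left out 0 for 9 of 36 members, against 21.6% of all tested genes, and for 9 of the 35 members with 300 counts or more on average, against 28.2% of such genes. These 9 were Acat2, Idi1, Sqle, Ebp, Npc2, Srebf2, Soat1, Abca1 and Lrp1. Acat2, Idi1, Sqle, Ebp and Npc2 were higher in replicate 2 by TPM, by counts and by the second table. Acat2 gave the largest TPM difference of these, 0.14, with a counting interval of 0.09 to 0.34 around 0.22 by counts. Lrp1 was lower in replicate 2 by the same 3 measures, at -0.09 by TPM and -0.12 by counts with an interval of -0.14 to -0.09. Abca1 was lower by TPM at -0.23 and by counts at -0.15, but higher by the second table at 0.11. Srebf2 and Soat1 had TPM and count differences of opposite sign. By spike-in scaling Lrp1 was higher in replicate 2, at 0.03. Counting intervals leave out the spread between animals, and 15 of the 36 members kept their sign by TPM, posterior mean TPM, counts and the second table, against 66.1% of all tested genes.

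**Figure D5:**
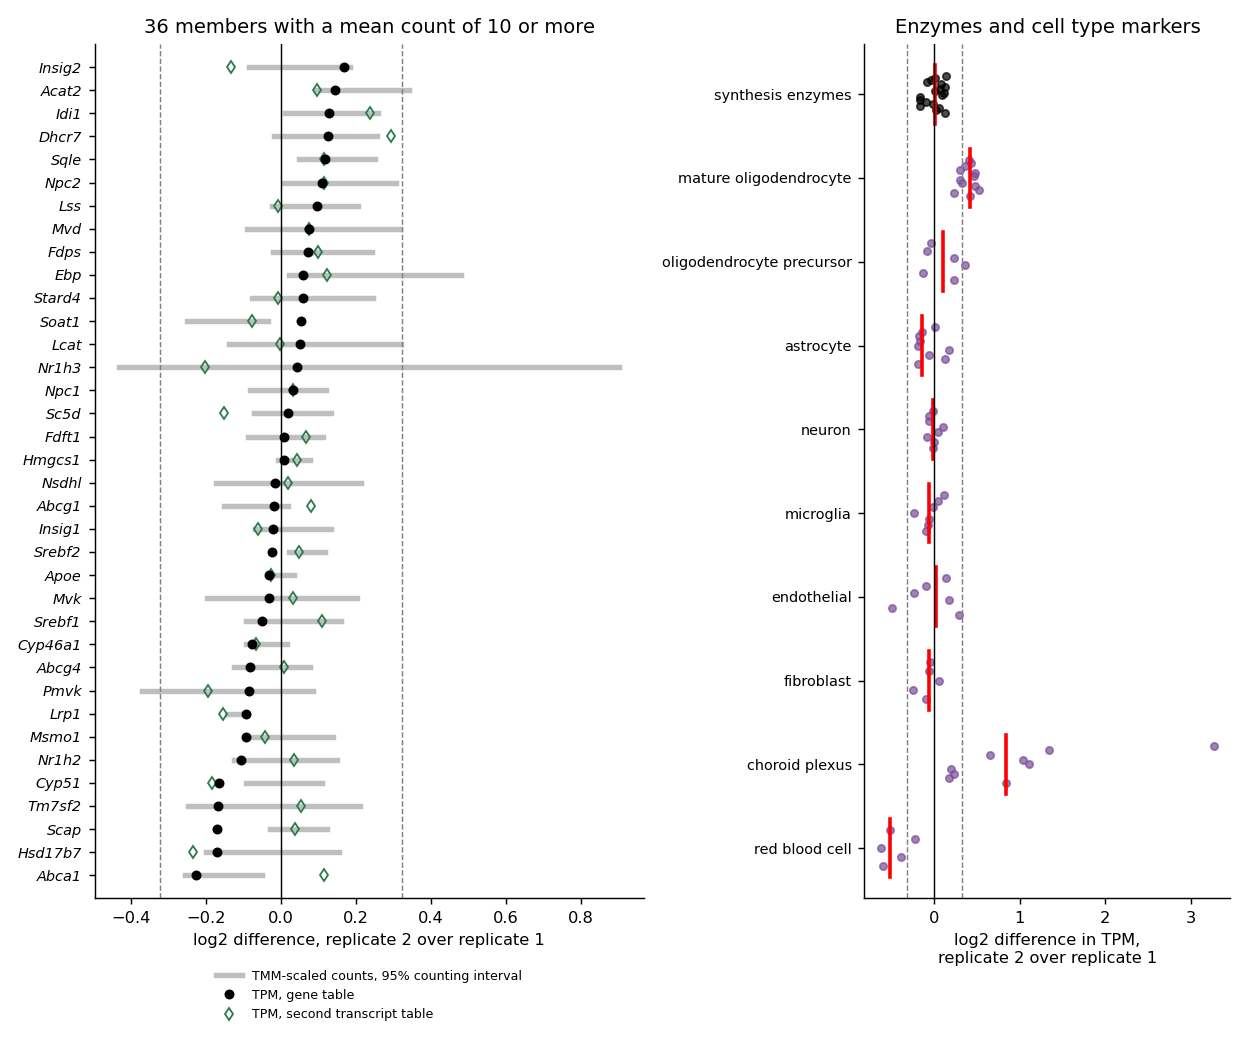
Left, log2 difference of replicate 2 over replicate 1 for the 36 members with a mean count of 10 or more, by TPM (filled circles), by the second table (open diamonds) and as the 95% counting interval of TMM-scaled counts (grey bars). Right, the TPM differences of the 18 synthesis enzymes and of 9 cell type marker lists, with red lines at the medians; dashed lines mark 25%, and the 12 mature oligodendrocyte genes all lie right of 0 while the enzymes lie on both sides of it.

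The mature oligodendrocyte, choroid plexus and red blood cell marker lists differed more between the animals than the members did. Each of the 12 myelin and other mature oligodendrocyte genes exceeded its replicate 1 level in replicate 2, 9 of them by over 25%, with a median log2 difference of 0.41 and a summed level of 1300 TPM in replicate 2 and 977 TPM in replicate 1. Mbp, a main myelin protein gene, had 463 TPM in replicate 2 and 348 TPM in replicate 1. The synthesis enzymes summed to 483 TPM in replicate 2 and 478 TPM in replicate 1. By TPM 11 of the 18 enzymes were higher in replicate 2. The number was 15 by TMM-scaled counts, 12 by the second table and 18 by spike-in scaling, which also raised the median of all tested genes. In bulk tissue, fewer cells of a type and less RNA per cell cannot be told apart. Of the 9 astrocyte genes 3 were higher in replicate 2 and 6 lower, none by over 25%, with a median of -0.15. All 9 choroid plexus genes were higher in replicate 2, 6 of them by over 25%, and their defining gene Ttr had 192 TPM in replicate 2 and 19.5 TPM in replicate 1. The 5 genes of red blood cells all had less TPM in replicate 2, and for 4 of them replicate 1 exceeded replicate 2 by over 25%. The directions of the oligodendrocyte, choroid plexus and red blood cell lists were the same by TMM, spike-in scaling and the second table. The part of these lists in the members' small differences was not tested.

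Other listed genes of the pathway were also mostly detected. Of 59 listed genes that are no members 57 were detected, and 4 were over 25% apart on the gene table, against the 14.3% of all tested genes given above. By the second table the count was 7 of 59, against 17.5% of all tested genes. Of 11 genes of the isoprenoid side branches, Coq2 was the highest, with 30.1 TPM in replicate 2 and 32.0 TPM in replicate 1, and Pdss1 the lowest, with 5.60 TPM in replicate 2 and 5.98 TPM in replicate 1, both of ubiquinone synthesis. Of 12 further sensing genes, the corepressor gene Ncor1 led with 117 TPM in replicate 2 and 124 TPM in replicate 1, and Rxrg, a partner of nuclear receptors, was lowest with 3.44 TPM in replicate 2 and 2.82 TPM in replicate 1. Among 17 uptake and transport genes the apolipoprotein gene Clu reached 431 TPM in replicate 2 and 443 TPM in replicate 1. That was below Apoe in both animals. Gramd1c, of a family of sterol transfer proteins, was lowest with 0.62 TPM in replicate 2 and 0.93 TPM in replicate 1.

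Oxysterol enzymes other than Cyp46a1 were low. Cyp7b1, an oxysterol hydroxylase, was the highest of 5, with 5.67 TPM in replicate 2 and 5.94 TPM in replicate 1, and Cyp39a1 the lowest, with 0.77 TPM in replicate 2 and 1.08 TPM in replicate 1. Listed genes past 25% in the same direction in both quantifications were Sult2b1, Hsd3b7 and Gramd1c. Sult2b1, a sterol sulfotransferase, differed by 0.50 by TPM, on 121 expected counts in replicate 2 and 85 in replicate 1. Its counting interval of -0.03 to 0.80, around 0.38 by TMM-scaled counts, included 0. Hsd3b7, a sterol dehydrogenase of bile acid synthesis, differed by 0.49 by TPM. By TMM-scaled counts it differed by 0.80, with a counting interval of 0.30 to 1.35, on counts that were not whole. Gramd1c differed by -0.35 by TPM and by -0.48 by TMM-scaled counts, with an interval of -1.22 to 0.22 around the latter. The fourth gene past 25% on the gene table, Erlin2, differed by -0.35 there and by -0.21 in the second table. Of 8 fatty acid synthesis genes, also SREBP targets, Scd2 was the highest with 256 TPM in replicate 2 and 262 TPM in replicate 1, and Elovl6 the lowest with 14.7 TPM in replicate 2 and 16.1 TPM in replicate 1. None of the 8 was over 25% apart on the gene table or by TMM-scaled counts.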

How the data were processed

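Levels are TPM from the gene table deposited for each library, which also gives expected counts that need not be whole and posterior mean TPM; its column names are those of RSEM, per the file headers. The first transcript table, with the deposited percent of each gene per transcript, matches it, and the second has estimated counts and TPM under kallisto's column names, per the file headers. Build mm10 and GENCODE M21 come from the file list in the labels; the aligner and program versions: not given in the sources used here.

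The animals were compared on log2(TPM + 0.5), replicate 2 over replicate 1, which understates changes of low genes, where the 2 counts averaged 10 or more. Counts were rounded for TMM scaling (edgeR 4.0.16) and DESeq2 1.42.0 size factors. Transcript shares were computed from TPM, and counting intervals cover counting error only. Numbered rows that name no gene (2.3e-05% to 3e-05% of counts) were left out. The members, lists and alternatives were chosen with earlier results of these data known. The rule named all members and, of each other list, the highest, the lowest and genes over 25% apart, the same way, in both quantifications; the further synthesis steps are not reported here by gene, and the list symbol Faxdc2 was not analysed here. Scaling, differences, calls and counting intervals of counts were tested on counts simulated with sampling noise only. The spread between the libraries here was larger. Motif searches and transcript shares were not tested in this way.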

Additional observations from a re-analysis of the deposited data

How the results depend on the processing

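The count of detected members was 35 at a minimum of 2 TPM and 36 at 0.5 TPM, with posterior means, in the second table, rescaled over protein-coding nuclear genes, and with either animal left out (36 to 36). The median member level was 34.4 TPM in the second table, 22.2 TPM with posterior means and 47.0 TPM when rescaled over protein-coding nuclear genes, against 21.3 TPM, and 20.9 to 21.8 TPM with an animal left out; the cause was not tested for the second table. Scaled to the spike-ins, 3 members were over 25% apart (Acat2, Ebp and Nr1h3, all higher in replicate 2), 35 were higher in replicate 2, and the enzymes' median was 0.18. With no count minimum 1 member, Ch25h, was over 25% apart. The count was 0 at 1.5-fold, at pseudocounts of 0.1 and 1, with TMM, DESeq2, posterior means and the second table. In 6 of 7 pairs the gene named first was higher in both animals, in each table and with an animal left out (6 to 6). No paired analysis was possible because there is 1 group. Depth limits Ch25h and Nr1h3.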

Other observations

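Genes that overlap a member can share its reads, and 19 of the 37 members overlap another annotated gene, 6 of them on the same strand. Gm20388, on the strand opposite to Mvd and chosen here after its values were seen, had 8.11 TPM in replicate 2 and 2.46 TPM in replicate 1, whereas Mvd differed by 0.08 on the log2 scale. Vps51, which overlaps Tm7sf2 on the same strand, had 33.9 TPM in replicate 2 and 35.4 TPM in replicate 1, above Tm7sf2 in both animals. Ctsb, opposite Fdft1, had 192 TPM in replicate 2 and 192 TPM in replicate 1. Mir33, a microRNA gene inside Srebf2, was listed at 0 in both animals, as were Mir6921 and Mir6922, which overlap Srebf1. Whether these libraries capture microRNAs was not examined, so the 0 is not a sign of absence.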
